A study of Mus musculus with 8 samples.

Results

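The genes of the tumour necrosis factor (TNF) ligand and receptor superfamilies were compared between lymphatic endothelial cells (LEC) and blood vascular endothelial cells (BEC) of the healthy mouse colon. They were chosen by name, as every probe set annotated with a single gene whose symbol starts with Tnfsf or Tnfrsf, or is Tnf, Lta, Ltb, Ltbr, Fas, Fasl, Cd40 or Eda2r. This gave 57 probe sets of 35 genes, out of 45037 probe sets and 18193 genes on the array. LEC line the vessels that drain fluid and leukocytes from the gut wall, and BEC line its arteries, capillaries and veins. Both came from the colons of 4 healthy C57BL/6J mice aged 8 weeks, 3 female and 1 male (mouse 4), with no treatment or transgene named. They were sorted by flow cytometry on CD31, CD45.2 and podoplanin, with gates not given in the sources used here. The 8 arrays are 4 animal-matched pairs, which the submitters selected for the quality of their extracted and amplified material, so they are no random draw of animals.

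Ligands of this superfamily are trimeric proteins, mostly anchored in the membrane and often shed. Their receptors carry cysteine-rich domains outside the cell. Receptors with a death domain recruit TRADD or FADD and can activate caspase 8, others bind TRAF adaptors and activate NF-kB, and decoy receptors bind ligand without a full signalling tail. Blood vessels answer TNF with adhesion molecules and chemokines that recruit leukocytes, and lymphotoxin signals shape lymphoid tissue of the gut.

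All levels below are log2 values of the deposited signal of 1 probe set per gene, the brightest over the 8 arrays. Signals of different probe sets are not on a common scale per transcript, so levels are compared between cell types and not between genes. A background level was read on each array from 27 probe sets for bacterial control transcripts, as their 95th percentile, and lay between 3.43 and 4.52 in BEC and between 3.83 and 4.88 in LEC. Mouse 1 had the highest background in both cell types. The labels were borne out by markers: 6 of 6 lymphatic genes were higher in LEC, podoplanin among them as a sort antigen, and 7 of 7 blood endothelial genes were higher in BEC (limma, adjusted p under 0.05). Of 9 genes shared by both kinds of endothelium, 2 were lower in LEC and 0 higher, with a median difference, LEC minus BEC, of -0.72. Their summed linear signal was 23924 to 35073 in BEC and 12926 to 20455 in LEC. These are bulk RNA samples, so fewer cells of a type and less RNA per cell cannot be told apart.

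Of the 35 genes, 9 lay above background on all 4 BEC arrays and 5 on all 4 LEC arrays, and those 5 were above it on all 8 arrays (Tnfsf10, Tnfrsf1a, Tnfrsf1b, Tnfrsf22 and Cd40). At 4 genes no array was above it (Tnfsf8, Tnfsf11, Tnfsf14 and Tnfrsf9), though a dimmer probe set of Tnfrsf9 was at 3.77 on the BEC array of mouse 3, whose background was 3.43. A gene was tested where its value passed the 40th percentile of the array on at least 4 of the 8 arrays, which 23 of the 35 did. Of these 23, 5 were over that percentile on all BEC arrays but not on all LEC arrays, and 1, Ltbr, the other way round. Two-sided p-values came from limma, fitted to all 13259 genes that passed and adjusted by Benjamini-Hochberg.

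Among the 23 genes tested, 2 were lower in LEC and 0 were higher. Over all genes tested, 4.07% were called, 2.31% lower and 1.76% higher in LEC. The genes called were the ligand gene Tnfsf10 and the decoy receptor gene Tnfrsf22. At an unadjusted p under 0.05, 5 genes were lower and 1 was higher. Of all genes tested, 14.4% passed that threshold, 7.42% lower and 6.98% higher. The median difference, LEC minus BEC, of the 23 genes tested was -0.30, against 0.08 over all genes tested. Over all 35 genes without any filter it was 0.10, against 0.18 over all 18193 genes, and 45.7% of the 35 had a lower mean in LEC, against 43.1% of all genes. These medians and shares are given as descriptions, with no test of the superfamily as a whole.

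**Figure D1:**
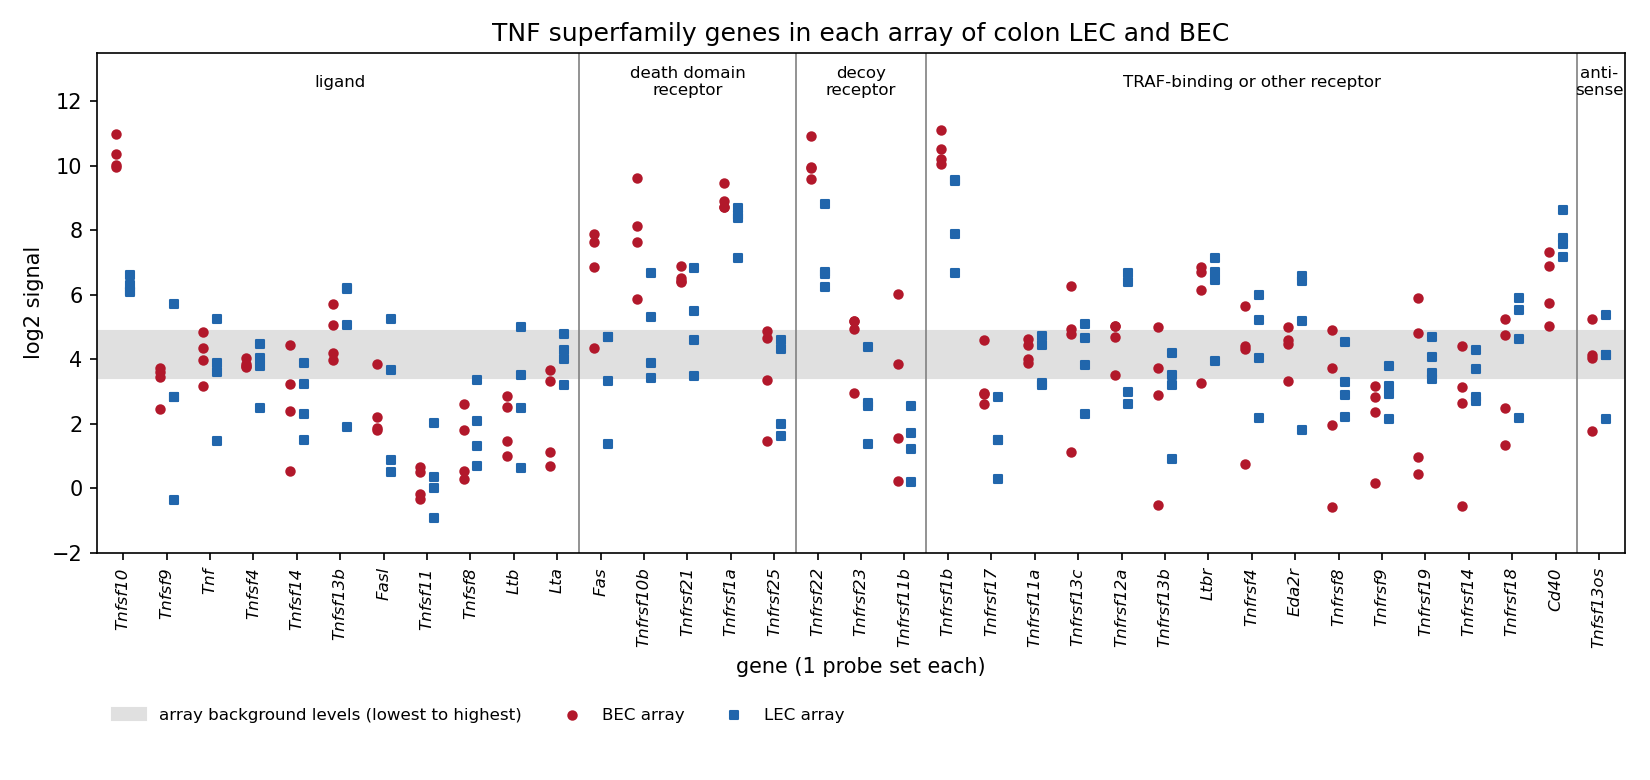
Log2 signal (vertical axis) of the 35 genes (horizontal axis, ordered by role and then by difference) on each array, with BEC as red circles and LEC as blue squares. The grey band spans the background levels of the 8 arrays, from 3.43 to 4.88. The values of most genes reach into it or under it. All BEC values of Tnfsf10, Tnfrsf22, Tnfrsf1b and Tnfrsf1a stand above their LEC values.

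Tnfsf10 encodes TRAIL, a ligand that can trigger apoptosis through death receptors and that is made by endothelial and immune cells. Its log2 signal was 9.98, 10.98, 10.02 and 10.38 in BEC of mice 1 to 4, and 6.60, 6.08, 6.11 and 6.30 in LEC of the same mice. The groups did not overlap, and every LEC array was still above its background. BEC averaged 10.34 ± 0.46 and LEC 6.27 ± 0.24 (SD over 4 mice). LEC were thus 16.7-fold lower, a difference of -4.07 ± 0.47 (SE) with an adjusted p of 1.90e-04 by limma, lower in 4 of 4 mice. Leaving out any array gave 14.4-fold to 18.2-fold. In a limma fit with each mouse as a block, the adjusted p was 0.00276.

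The other probe sets of Tnfsf10 were read as well, in a fit of all 28838 probe sets that passed the filter. One of them was 9.06, 9.74, 9.43 and 9.65 in BEC and 6.65, 6.49, 5.70 and 6.36 in LEC. This was a difference of -3.17 ± 0.51 (adjusted p = 0.00241), again without overlap. The remaining probe set was 9.10, 9.06, 7.04 and 7.68 in BEC and 5.65, 7.60, 6.51 and 5.51 in LEC. Its groups overlapped, and its difference of -1.90 ± 0.70 was not called (adjusted p = 0.225). The direction was the same at all 3 probe sets and in all 4 mice, and the size ranged from 3.74-fold to 16.7-fold. Over the superfamily, 3 of 34 probe sets tested were called lower in LEC and 0 higher, against 3.31% of all probe sets called, 1.84% lower.

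Genes of epithelial cells, which also make TRAIL and its receptors, varied strongly between arrays. All 11 genes of an epithelial list were tested and 0 were called, with a median difference of -1.13, against 0.08 over all genes tested. Their summed linear signal ran from 579 to 16984 in BEC and from 385 to 9759 in LEC, with the highest value of each group in mouse 3. The sum was higher in BEC than in LEC of each mouse, with 6132 and 775 in mouse 4. Tnfsf10 differed by -3.38 in mouse 1 and -4.90 in mouse 2, where the epithelial sum was at most 658 in both cell types, and by -3.91 and -4.08 in mice 3 and 4. Among 8 pericyte and smooth muscle genes, Rgs5 was lower in LEC (at least 27.9-fold, adjusted p = 0.00849), and the summed signal of the list was 1058 to 1633 in BEC and 285 to 1395 in LEC. The part of epithelial cells and pericytes in the difference of Tnfsf10 was not tested.

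The upstream sequence of Tnfsf10 is given with that of Tnfrsf1b, a receptor gene described below, because they are the ligand and the receptor with promoters in the reference table whose values stood apart without overlap by the widest margin. Each run is the 250 bases before the annotated start in RefSeq (GRCm38.p6), 5′ to 3′ on the strand of the gene, at chr3:27316827-27317076 (plus strand) for Tnfsf10 and chr4:145246871-145247120 (minus strand) for Tnfrsf1b. Capitals mark a match to a motif searched on both strands.
Tnfsf10: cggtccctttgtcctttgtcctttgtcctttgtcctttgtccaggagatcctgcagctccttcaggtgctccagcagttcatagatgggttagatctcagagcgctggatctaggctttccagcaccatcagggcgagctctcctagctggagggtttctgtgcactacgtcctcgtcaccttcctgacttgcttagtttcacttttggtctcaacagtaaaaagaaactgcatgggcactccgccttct
Tnfrsf1b: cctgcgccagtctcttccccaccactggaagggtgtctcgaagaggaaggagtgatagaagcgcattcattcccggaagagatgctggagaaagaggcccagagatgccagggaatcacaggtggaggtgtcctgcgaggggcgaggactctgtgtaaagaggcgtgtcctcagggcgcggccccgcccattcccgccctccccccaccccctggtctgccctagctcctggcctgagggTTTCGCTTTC

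The motifs were the core of the interferon-stimulated response element (TTTC and TTTC with any 2 bases between them), TGANTCA, which AP-1 factors bind, and the NF-kB consensus. The Tnfsf10 window held none of them. The Tnfrsf1b window held the interferon response core in its last 10 bases before the start. Promoters of 28 of the 35 genes were in the table, with 32 windows. The interferon response core was in 4 of these (12.5%), TGANTCA in 5 (15.6%) and the NF-kB consensus in 4 (12.5%), against 2.98%, 6.75% and 7.25% of all 32851 windows. These are matches of letters only, and no test was made of them.

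Tnfrsf22 encodes a mouse decoy receptor that binds TRAIL and carries no death domain. Its log2 signal was 10.92, 9.92, 9.59 and 9.96 in BEC and 6.71, 8.82, 6.66 and 6.24 in LEC of mice 1 to 4. The groups did not overlap, and LEC of mouse 2 stood nearest to BEC. The means were 10.10 ± 0.57 and 7.11 ± 1.16 (SD, n = 4 each), a 7.97-fold lower level in LEC (difference -2.99 ± 0.60, limma adjusted p = 0.0111, lower in 4 of 4 mice). The adjusted p was 0.0503 without BEC replicate 1 and 0.0841 without mouse 1, and it was 0.0827 when all 3 probe sets of the gene were averaged. With each mouse as a block it was 0.0246. Without LEC replicate 2 the ratio was 11.8-fold. That array also had the highest sum over 7 fibroblast genes, which was 7308 there, 4958 in LEC of mouse 4 and 201 to 601 on the other 6 arrays, with 0 of 6 genes tested called. The median difference of the 6 tested was 3.48, against 0.08 over all genes tested. Without the filter it was 3.16 over all 7, against 0.18 over all genes. The part of fibroblasts in the Tnfrsf22 values was not tested.

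The other probe sets of Tnfrsf22 differed by -2.76 ± 1.29 (adjusted p = 0.386) and -1.97 ± 1.06 (adjusted p = 0.474), and each lay above background on only 1 of 4 LEC arrays. Tnfrsf23, the neighbouring decoy receptor gene on chromosome 7, was 2.95, 4.94, 5.19 and 5.19 in BEC and 4.37, 1.37, 2.56 and 2.63 in LEC. No LEC array was above background for it, the groups overlapped, and the difference of -1.84 ± 0.97 was not called (adjusted p = 0.431). The sequences of these neighbours are closely related, so signal shared between them cannot be told apart here. Tnfrsf11b, which encodes the secreted decoy osteoprotegerin, did not pass the filter. It was above background on 2 BEC arrays, with 6.03 in mouse 2 and 3.84 in mouse 3, and on 0 LEC arrays, where it ran from 0.19 to 2.54. A further probe set of Tnfrsf11b went the other way, with means of 0.87 in BEC and 2.50 in LEC. It was above background on 0 BEC and 0 LEC arrays.

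**Figure D2:**
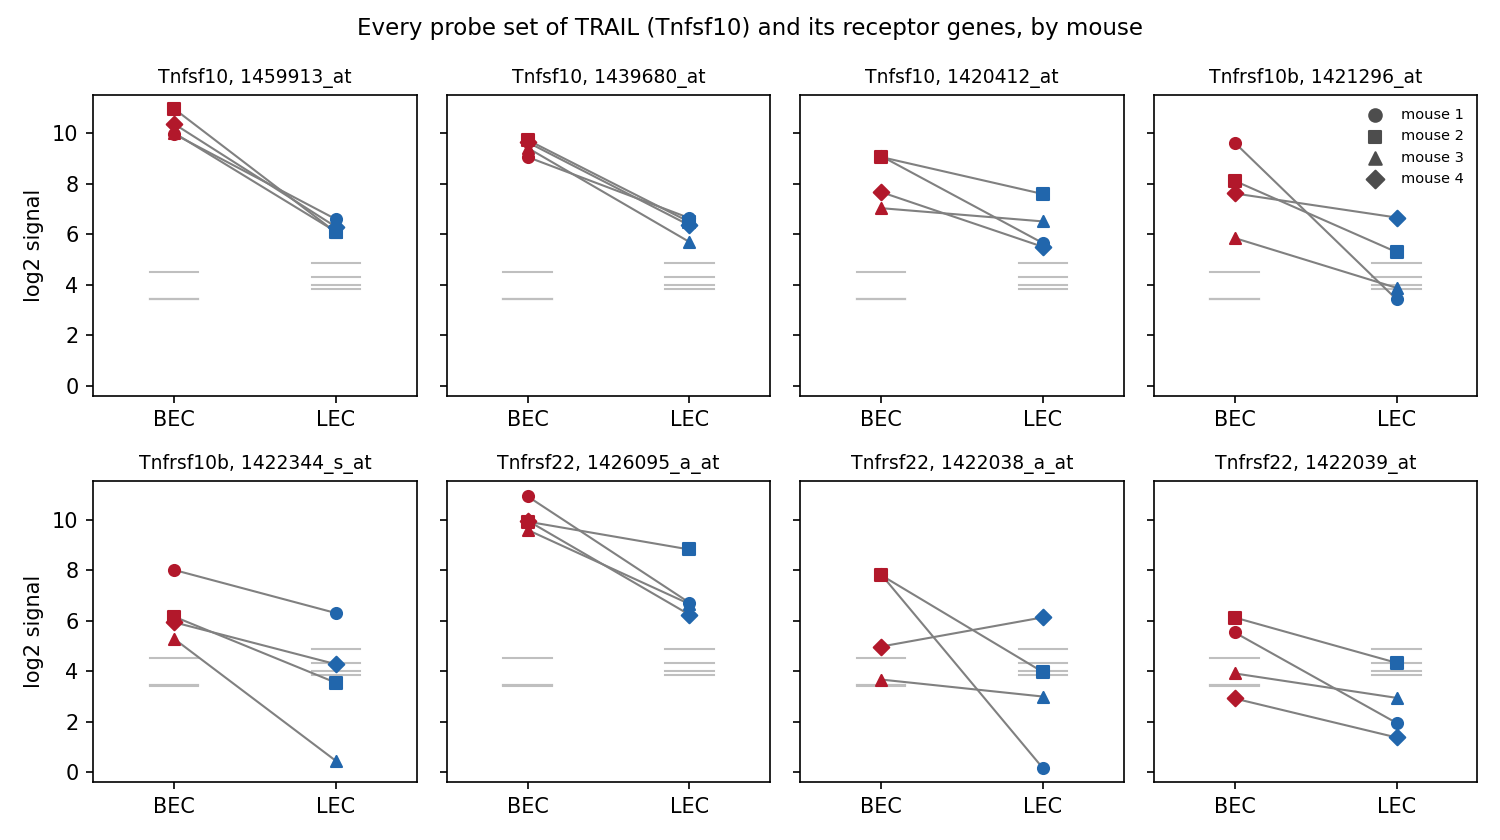
Log2 signal (vertical axis) of the 3 probe sets of Tnfsf10, the 2 of Tnfrsf10b and the 3 of Tnfrsf22 in BEC and LEC, with a line and a marker shape for each mouse and short grey lines for the background of each array. The lines fall from BEC to LEC in all mice at every probe set but the middle one of Tnfrsf22, where mouse 4 rises from 4.97 to 6.13.

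The death domain receptors did not pass the test at any of 5 genes, though all 5 had a lower mean in LEC. Tnfrsf10b encodes the death receptor of TRAIL in the mouse. It was 9.63, 8.12, 5.86 and 7.62 in BEC and 3.43, 5.30, 3.88 and 6.67 in LEC. The value was lower in LEC in 4 of 4 mice, with differences from -6.20 in mouse 1 to -0.95 in mouse 4, and the groups overlapped. The difference was -2.99 ± 0.92 with an adjusted p of 0.106, and a further probe set gave -2.71 ± 1.13 (adjusted p = 0.308). Without mouse 1 the difference was -1.92.

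Fas, the receptor of FAS ligand, was 7.89, 7.63, 4.36 and 6.85 in BEC and 4.70, 1.38, 4.68 and 3.33 in LEC. It was above background on 4 BEC arrays and on 1 LEC array, and in mouse 3 LEC was 0.32 above BEC. The difference of -3.16 ± 1.00 (95% interval -5.32 to -0.998) missed the threshold (adjusted p = 0.119). Without BEC replicate 3 it was -3.93 with an adjusted p of 0.0466. The array left out there had the highest epithelial sum of the 8, whose part in the value of Fas was not tested.

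Tnfrsf21, which encodes death receptor 6, gave different sizes at its probe sets. The one with the higher mean was 6.51, 6.88, 6.42 and 6.39 in BEC and 6.82, 4.60, 5.49 and 3.47 in LEC, a difference of -1.46 ± 0.78 (adjusted p = 0.434). The other was 6.46, 8.42, 8.40 and 6.11 in BEC and 3.27, 2.37, 6.05 and 4.96 in LEC. Its groups did not overlap, and its difference was -3.19 ± 0.93 (adjusted p = 0.0947 over all probe sets). The mean of both gave an adjusted p of 0.0571. BEC was steady at the first probe set (SD 0.22) and LEC was spread (SD 1.42), so the interval of -3.13 to 0.22 holds both no difference and a large one.

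Tnfrsf1a encodes the main TNF receptor, found on most cells. It was 8.91, 9.46, 8.72 and 8.73 in BEC and 8.68, 8.38, 7.14 and 8.48 in LEC. The groups were apart by a small margin, and the value was lower in LEC in 4 of 4 mice. The difference of -0.79 ± 0.50 was within what the spread allows (95% interval -1.86 to 0.28, adjusted p = 0.525). Tnfrsf25, a receptor mostly of T cells, was above background on 2 BEC arrays and 1 LEC array (difference -0.45, adjusted p = 0.909).

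Of the 15 receptors that bind TRAF adaptors or signal in other ways, 10 were tested and 0 were called, and 4 of the 15 had a lower mean in LEC. Tnfrsf1b, the second TNF receptor, which lacks a death domain and is more restricted to endothelial and immune cells, came nearest. It was 10.52, 11.10, 10.05 and 10.22 in BEC and 9.56, 9.54, 6.68 and 7.89 in LEC. The groups did not overlap, and LEC of mice 3 and 4 lay well under those of mice 1 and 2. The difference was -2.05 ± 0.61 (95% interval -3.37 to -0.74), a 4.15-fold lower level in LEC, with an adjusted p of 0.0885. A fit that kept each mouse as a block gave an adjusted p of 0.0457, and Tnfrsf1b was then called. It was also called without LEC replicate 1 (adjusted p = 0.0461) and with values raised to background (adjusted p = 0.0382). It was not called under the other 17 alternatives, where the adjusted p reached 0.251 without BEC replicate 2 and was 0.228 with no intensity trend and 0.111 with the mean of its probe sets. Its other probe set was 5.13, 4.80, 4.59 and 5.11 in BEC and 2.45, 5.01, 1.85 and 3.12 in LEC. There the groups overlapped, LEC was higher in mouse 2, and the difference of -1.80 ± 0.91 was not called (adjusted p = 0.440).

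Groups that do not overlap were found at 4 of the 35 genes with LEC lower (Tnfsf10, Tnfrsf22, Tnfrsf1b and Tnfrsf1a) and at 0 with LEC higher. Over all 18193 genes the shares were 3.92% with LEC lower and 4.6% with LEC higher.

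Cd40, the receptor of CD40 ligand on antigen-presenting and endothelial cells, was the gene nearest to a higher level in LEC. It was 7.31, 6.90, 5.05 and 5.75 in BEC and 7.75, 7.16, 7.57 and 8.63 in LEC. LEC was higher in 4 of 4 mice, by 0.44 and 0.26 in mice 1 and 2 and by 2.53 and 2.88 in mice 3 and 4, and the groups overlapped. The difference of 1.53 ± 0.67 (95% interval 0.08 to 2.97) was not called (adjusted p = 0.310), and a further probe set gave 0.94 ± 0.88 (adjusted p = 0.730). Leukocyte genes were read beside it. The sum of 6 common leukocyte genes was 45.4 to 350 in BEC and 29.2 to 738 in LEC, with 0 of the 3 tested called, and Ptprc, which encodes the antigen CD45 used in the sort, was above background on 2 BEC arrays and 1 LEC array. The sum of 7 B and plasma cell genes did not overlap, with 224 to 690 in BEC and 2332 to 3345 in LEC. Only 1 of the 7 genes was above background on all 4 LEC arrays, so the sum can rest on 1 gene. The 3 tested had a median difference of 2.07, against 0.08 over all genes tested. A gene could pass the filter through the 4 arrays of 1 cell type, so this median can favour genes high in LEC. Over all 7 genes, without the filter, the median was 1.14, against 0.18 over all genes. Of the 3 tested, Sdc1, which other cell types also express, was 7.06-fold higher in LEC (limma adjusted p = 0.00225), and 2 were not called. The B cell receptor genes Cd79a and Cd79b were above background on at most 1 LEC array each. The sum of 9 T and innate lymphoid cell genes was 124 to 283 in BEC and 234 to 739 in LEC. Of the 4 tested, Cd2 was higher in LEC (at least 9.42-fold, limma adjusted p = 0.0203) and 3 were not called. Over all 9 genes, without the filter, the median difference was 0.14, against 0.18 over all genes. The sum of 10 macrophage and dendritic cell genes was 68.3 to 230 in BEC and 147 to 304 in LEC, with 0 of the 7 tested called. The part of such cells in the values of Cd40 was not tested.

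Ltbr, the lymphotoxin beta receptor, was 3.26, 6.16, 6.87 and 6.72 in BEC and 7.13, 3.94, 6.70 and 6.45 in LEC. In each group 3 arrays were above background and 1 was under it, and the difference was 0.31 ± 0.96 (95% interval -1.76 to 2.37, adjusted p = 0.933). Tnfrsf11a, the receptor of RANK ligand, Tnfrsf12a, the receptor of TWEAK, Tnfrsf13c, the BAFF receptor of B cells, and Eda2r, a receptor of ectodysplasin, had differences of -0.33, 0.12, -0.30 and 0.65 with adjusted p-values of 0.855 to 0.977. A further probe set of Tnfrsf11a, which did not pass the filter, went the other way. It was 1.34, 2.13, 1.71 and 2.91 in BEC and 4.00, 6.17, 0.92 and 6.92 in LEC, above background on 0 BEC and 2 LEC arrays, a difference of 2.48 without a test. The costimulatory receptors Tnfrsf4 and Tnfrsf18, which are neighbours on chromosome 4, differed by 0.58 and 1.10 (adjusted p = 0.888 and 0.730), and Tnfrsf19 by 0.90 (adjusted p = 0.822). In the fit of all probe sets, a further one of Tnfrsf12a gave -0.28 (limma adjusted p = 0.955). Further ones of Tnfrsf19 gave 1.73 (limma adjusted p = 0.649) and 2.03, the latter without a test. Intervals of these 7 genes all included 0, and none was narrower than from -2.07 to 1.40, so differences of 2-fold in either direction could not be told from none.

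Among receptors that were not tested, Tnfrsf13b, a BAFF and APRIL receptor of B cells, was above background on 2 BEC arrays, at 3.72 in mouse 2 and 5.01 in mouse 4. Tnfrsf8, the activation antigen CD30, was above it on 2 BEC arrays (4.89 and 3.74 in mice 1 and 2) and on 1 LEC array (4.55 in mouse 4). Tnfrsf8 is the neighbour of Tnfrsf1b on chromosome 4. Tnfrsf9, Tnfrsf14 and Tnfrsf17 stayed near or under background.

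**Figure D3:**
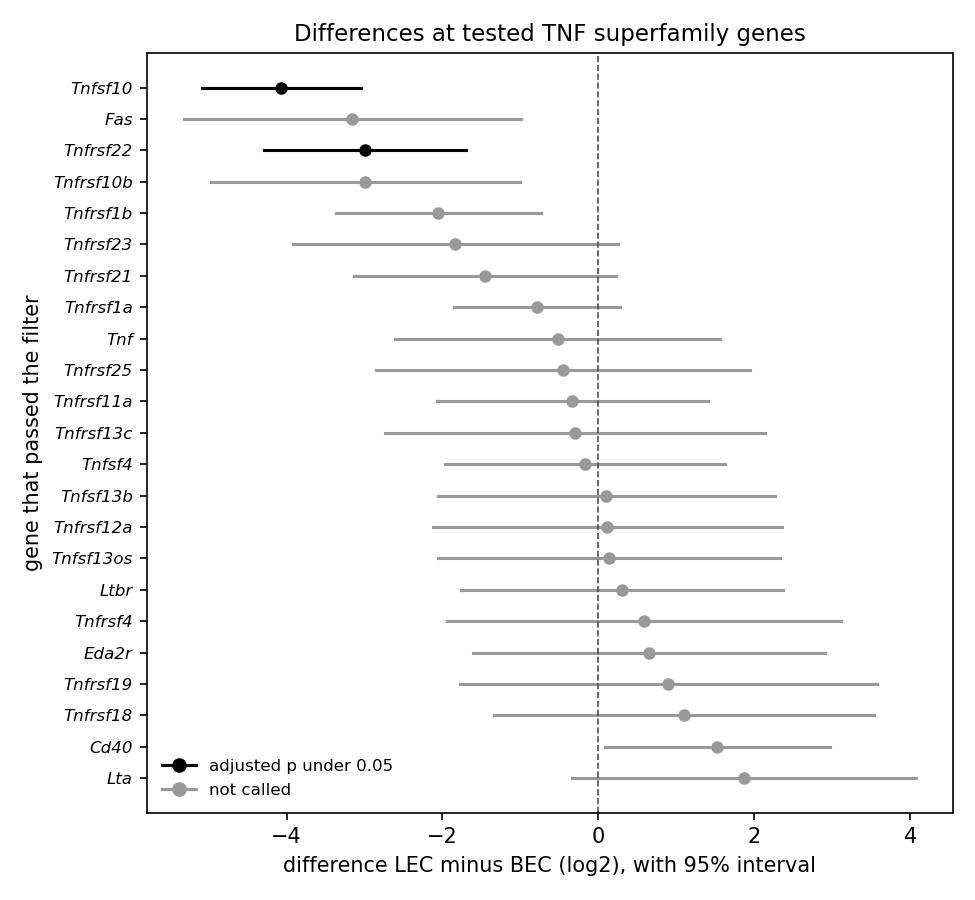
Difference between LEC and BEC (horizontal axis, log2, LEC minus BEC) of the 23 genes tested, with the 95% interval of the moderated fit, black where the adjusted p was under 0.05 and grey otherwise. Only Tnfsf10 and Tnfrsf22 are black, and most grey intervals span at least 4 units.

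Of the 11 ligand genes, 5 were tested, and Tnfsf10 alone was called. Tnfsf13b, which encodes the B cell survival factor BAFF, averaged 4.74 ± 0.80 over BEC and 4.84 ± 2.04 over LEC (SD over 4 mice), a difference of 0.10 with a 95% interval of -2.06 to 2.27 (adjusted p = 0.980). Tnfsf4, which encodes OX40 ligand, was 3.86 ± 0.11 in BEC and 3.70 ± 0.86 in LEC (adjusted p = 0.960), above background on 3 and 2 arrays.

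Tnf, Lta and Ltb lie side by side on chromosome 17 and encode TNF and the lymphotoxins. Tnf was 4.83, 3.17, 3.97 and 4.36 in BEC and 5.26, 1.47, 3.62 and 3.89 in LEC, above background on 3 BEC arrays and 1 LEC array (difference -0.52 ± 0.97, adjusted p = 0.876). Lta was 3.68, 1.13, 0.68 and 3.31 in BEC and 4.28, 3.20, 4.01 and 4.79 in LEC. It was above background on 0 BEC and 2 LEC arrays, and its difference of 1.87 ± 1.02 was not called (adjusted p = 0.447). Ltb did not pass the filter and was above background on 1 LEC array.

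Among the other untested ligands, Tnfsf9, which encodes 4-1BB ligand, was above background on 2 BEC arrays (3.72 and 3.60 in mice 2 and 3) and on 1 LEC array (5.71 in mouse 1). Fasl was above it on 1 LEC array, and Tnfsf8, Tnfsf11 and Tnfsf14 on none. Tnfsf13os, an RNA antisense to Tnfsf13, was 3.80 ± 1.45 in BEC and 3.94 ± 1.34 in LEC (adjusted p = 0.970).

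Genes around the receptors were read from 5 lists, chosen by function. Of 97 entries, 89 had a named probe set and 70 were tested, and 2 were higher and 3 lower in LEC, where 1.76% of all genes tested were higher and 2.31% lower. The receptor adaptors and kinases held 30 tested genes and the NF-kB subunits and inhibitors 11, and 0 were called in either list. Their median differences were -0.29 and 0.12, against 0.08 over all genes tested.

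Of 15 tested genes that TNF induces in endothelium, 0 were higher and 3 were lower in LEC (2.31% of all genes tested were lower), with a median difference of -1.39, against 0.08 over all genes tested. Over all 27 named genes of the list, without the filter, the median was -0.054, against 0.18 over all genes. A gene could pass the filter through the 4 arrays of a single cell type. The count and median of tested genes can thus favour genes high in that cell type, and no conclusion on the list is drawn from them. Irf1, a transcription factor induced by interferon and TNF, averaged 10.28 ± 0.51 over BEC and 7.61 ± 0.95 over LEC (SD over 4 mice), 6.36-fold lower in LEC (limma adjusted p = 0.0108). Its adjusted p was 0.0577 without BEC replicate 2. The others were the adhesion genes Selp and Madcam1, which are also markers of venules and were under background on all 4 LEC arrays (at least 8.84-fold and 4.97-fold lower, adjusted p = 0.00677 and 0.00158). With values raised to background, the adjusted p of Madcam1 was 0.0516. Further genes of the list went without a call, among them Icam1 (9.24 in BEC and 9.82 in LEC, adjusted p = 0.655) and Vcam1 (6.20 and 4.81, adjusted p = 0.489).

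Of 10 genes for proteases and inhibitors that govern shedding of ligands and receptors, all were tested, 2 were higher and 0 lower in LEC (1.76% of all genes tested were higher). Mmp14, a membrane metalloprotease, was at least 12.7-fold higher (adjusted p = 0.00344). It was 8.27, 8.47, 8.32 and 9.77 in LEC of mice 1 to 4, where the fibroblast sums were 338, 7308, 601 and 4958. In BEC of the same mice these sums were 201, 213, 373 and 206. The part of fibroblasts in the difference of Mmp14 was not tested. Timp3, an inhibitor of the TNF-releasing protease ADAM17, was 12.24 ± 0.20 in BEC and 13.08 ± 0.31 in LEC, 1.79-fold higher (adjusted p = 0.0436). It lost the call without any array but LEC replicate 3 (adjusted p = 0.0642 to 0.131) and under each of the scaling alternatives, with a difference of 0.45 with equal hybridisation controls. The superfamily genes with other symbols (Cd27, Cd70, Cd40lg, Ngfr, Relt, Eda and Edar) were 0 of 4 called.

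**Figure D4:**
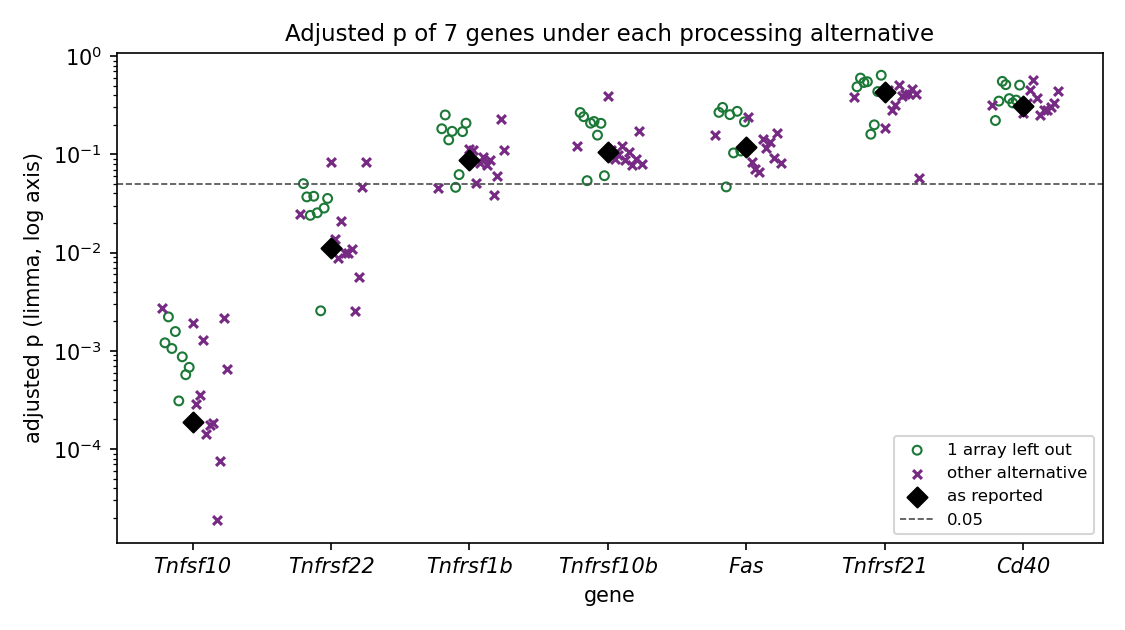
Adjusted p (vertical axis, log scale) of 7 genes as reported (black diamonds), with 1 array left out (green circles) and under the other alternatives (purple crosses), with a dashed line at 0.05. All values of Tnfsf10 lie between 1.88e-05 and 0.00276, those of Tnfrsf22 reach 0.0841, and those of Tnfrsf10b, Tnfrsf21 and Cd40 stay above the line.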

How the data were processed

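RNA of sorted colon LEC and BEC was measured on 8 single-colour arrays. The deposited values are log2 signals, made by the authors with MAS5, which summarises the probes of a probe set, per the submitters' processing notes. On a linear scale each array had a 2% trimmed mean of about 100.04. Values were used as deposited. Names came from the platform annotation of 2016, updated through gene numbers to RefSeq symbols. The brightest probe set of each gene was kept where it passed the 40th percentile on at least 4 arrays, and entered a limma fit (version 3.58.1, R 4.3.3, eBayes with intensity trend) with cell type as the term. This fit held no term for the mouse, and a fit with the mouse as a block was an alternative. Genes are called at an adjusted p under 0.05. The fit was first run on simulated data. Where a dimmer group had an array under background, ratios are "at least", with values raised to background. Replicate numbers pair the arrays, since the series design states matched animals (same-mouse correlations of deviations 0.142, 0.0776, 0.181 and 0.0510 for mice 1 to 4). The highest correlation between different mice was 0.0747, and that of mouse 4 with itself lay under it. The members and lists were chosen with earlier results of these data known. Every tested gene of the superfamilies is named. Values per array are given for genes called and the 8 brightest, and called genes of the lists are named.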

Additional observations from a re-analysis of the deposited data

Results flagged for a closer look

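In 1 of 46 groups of 4 arrays, from the 23 genes tested, an array stood far from the others. Tnfrsf23, a decoy receptor gene, was 2.95 in BEC of mouse 1, against 4.94 to 5.19 in the other BEC arrays, a gap of 0.888 of the group's range. Chance flags about 1 in 20 such groups. The value was under that array's background of 4.52.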

How the results depend on the processing

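Over 20 alternatives Tnfsf10 stayed called, with differences from -4.45 to -3.05. Calls changed at 3 of the 23 genes tested, namely Tnfrsf22, Tnfrsf1b and Fas. The count of genes lower in LEC was 1 without mouse 1, chosen after seeing the data, 1 with the mean of all probe sets, 3 with the mouse as a replicate block and 1 to 3 with an array left out. No gene was higher under any alternative. Over the signalling lists, lower genes numbered 1 without mouse 1 and 1 to 4 with an array left out. Higher genes numbered 1 without mouse 1, with quantile normalization, equal array medians, equal hybridisation controls, no filter or no intensity trend, and 1 to 2 with an array left out. The replicate block changed no other member's call than that of Tnfrsf1b. With the median control as background, 20 genes were above it on all BEC arrays and 20 on all LEC arrays.

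The sign turned at 11 of the 23 genes, none of them called. With equal hybridisation controls the difference was -0.082 for Ltbr, -0.27 for Tnfrsf12a, -0.29 for Tnfsf13b and -0.25 for Tnfsf13os. With equal array medians it was -0.16 for Tnfrsf12a, -0.17 for Tnfsf13b and -0.14 for Tnfsf13os, and with quantile normalization -0.030 for Tnfsf13b and -0.26 for Tnfsf13os. With values raised to background it was 0.21 for Tnf, 0.22 for Tnfrsf11a and 0.36 for Tnfsf4. With the mean of all probe sets it was 1.07 for Tnfrsf11a and -0.084 for Tnfrsf12a, and with a pseudocount of 16 it was -0.011 for Tnfrsf19. Without mouse 1 it was -0.88 for Ltbr, -0.81 for Tnfrsf12a, -0.029 for Tnfsf13b and 0.29 for Tnfsf4. With an array left out it ran from -0.53 to 1.01 for Ltbr, -1.09 to 0.18 for Tnf, -0.56 to 0.80 for Tnfrsf12a, -1.35 to 0.36 for Tnfrsf13c, -1.17 to 0.049 for Tnfrsf25, -0.43 to 1.31 for Tnfrsf4, -0.35 to 1.09 for Tnfsf13b, -0.53 to 0.74 for Tnfsf13os and -0.43 to 0.24 for Tnfsf4. The cause was not tested. The scalings moved the median of all genes from 0.08 to -0.20 with equal medians and -0.31 with equal hybridisation controls. Genes that an alternative's filter removed have no value under it.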

Other observations

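Probe sets annotated with several genes named no gene in the comparison. The one shared by Tnfsfm13, Tnfsf13 and Tnfsf12, which encode APRIL and TWEAK, averaged 9.05 ± 0.47 over BEC and 7.86 ± 1.59 over LEC (SD over 4 mice) and was above background on all 8 arrays. Its difference of -1.19 ± 0.70 was not called (limma adjusted p = 0.526 over all probe sets). The one shared by Tnfsfm13 and Tnfsf12 was 7.36 ± 0.61 in BEC and 6.14 ± 1.53 in LEC (adjusted p = 0.570). The one shared by Tnfrsf22 and Tnfrsf23 was 6.49, 5.73, 4.70 and 6.39 in BEC and 3.14, 3.16, 5.19 and 1.30 in LEC. It was above background on 4 BEC arrays and 1 LEC array, and its difference of -2.63 ± 0.94 was not called (adjusted p = 0.206).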
